A study of Mus musculus with 4 samples.

Results

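Intermediate filament and lamin genes were compared between epiblast-like stem cells (EpiLSC) and naive embryonic stem cells (nESC) of the mouse. The 10 genes were chosen by name, as rows of the authors' deposited table whose gene ID maps to Vim, Nes, Ina, Krt7, Krt8, Krt18, Krt19, Lmna, Lmnb1 or Lmnb2, out of 20296 genes in the table. All 10 were found and all 10 had an adjusted p. EpiLSC were made from the naive cells in N2B27 medium with activin A at 20 ng/ml and bFGF at 12 ng/ml and were collected on day 3, whereas nESC were held in 2i/LIF, a medium with kinase inhibitors and the cytokine LIF. Each state had 2 samples, 1 of the embryonic stem cell line R1 and 1 of E14TG2a (E14), and the labels name no genetic change in either state. RNA was sequenced in ribosome-depleted, strand-specific libraries. The medium differs with the state, so effects of medium and of state cannot be told apart.

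Intermediate filaments are rope-like polymers built from coiled-coil proteins. Keratins form them in epithelia as obligate pairs of 1 acidic type I and 1 basic type II chain, and Krt8 with Krt18 is the earliest such pair of the mouse embryo. Vimentin, encoded by Vim, is the type III protein of mesenchymal cells, nestin (Nes) a large partner of vimentin in neural progenitors, and alpha-internexin (Ina) a type IV protein of neurons. Lamins form the meshwork under the inner nuclear membrane, where B-type lamins (Lmnb1, Lmnb2) are made in nearly all cells and the A-type lamins of Lmna are typically scarce in pluripotent cells.

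Of the 10 genes, Nes, Ina and Krt18 rose in EpiLSC, Vim fell, and the other 6 did not pass the test. A gene was counted as changed when its adjusted p in the authors' deposited table was under 0.05 (DESeq2 Wald test, Benjamini-Hochberg adjustment over 16361 genes). Among all tested genes 7.67% were higher in EpiLSC by this rule, 6.23% were lower and 13.90% changed either way, against 3, 1 and 4 of the 10 filament genes. The median log2 fold change of the 10 was 1.71, against 0.02 over all tested genes. The genes were chosen by name and not drawn at random, so the count describes them and is no test of the family.

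The authors' deposited table gives 1 mean over the 4 libraries and 1 fold change per gene, so levels of single samples and differences between R1 and E14 were not analysed here. The sign was read from marker genes because the header does not give it: Fgf5 (8.40, SE 0.76), Otx2 and Dnmt3b of the later epiblast had positive log2 fold changes and the naive gene Esrrb (-8.54, SE 0.69), with Zfp42 and Klf4, negative ones per the authors' deposited table. Levels per state were computed from that mean and fold change, with equal weight for each library, and carry no SD. They are in normalized counts, that is, reads divided by a size factor per library. Total reads per sample are unknown, and the means summed to 27888553 normalized counts. Every p-value rests on 2 samples per state, 1 of each line, with no repeat culture of a line. Whether the authors' model held a term for the line is not given in the sources used here. In bulk RNA, fewer cells that make a transcript and less of it per cell cannot be told apart.

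**Figure D1:**
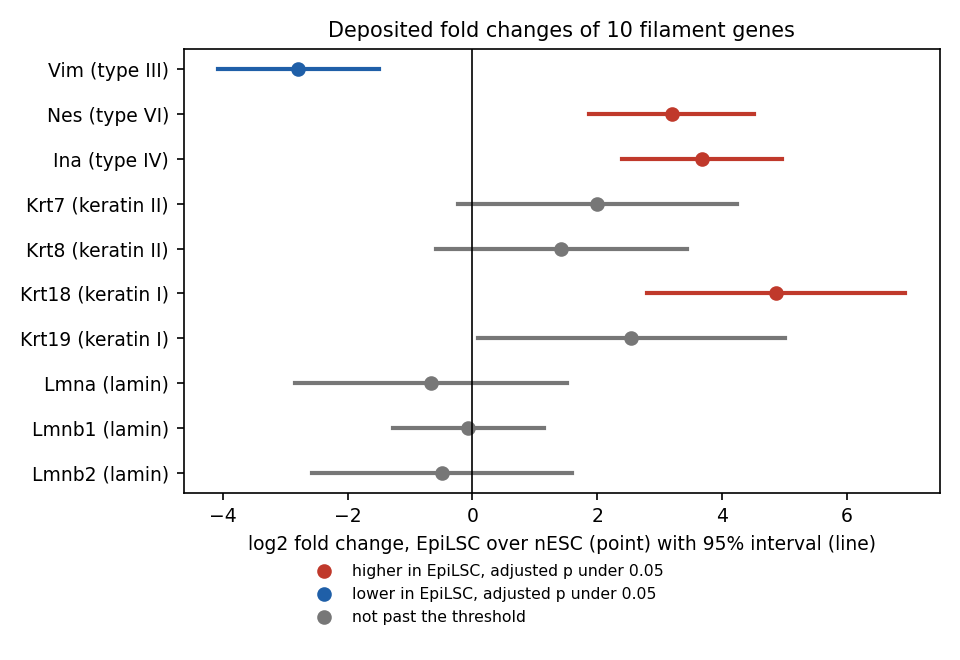
Log2 fold change of each of the 10 genes in EpiLSC over nESC as deposited (point) with its 95% interval (line), coloured by the call. Nes, Ina and Krt18 lie to the right of 0, Vim lies to the left, and the intervals of the 3 lamins include 0.

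The stretches upstream of the transcription start of the 3 genes that rose are shown because the RNA of these genes was higher in EpiLSC. They come from RefSeq on build GRCm38.p6, on the plus strand, and start 250 bases before the RefSeq start. Each stops at the RefSeq start or, where a GENCODE M21 exon begins earlier, before that exon, so no base of an annotated exon is shown. Capitals mark matches to 5 searched motifs on either strand.
Nes (chr3:87970843-87971077): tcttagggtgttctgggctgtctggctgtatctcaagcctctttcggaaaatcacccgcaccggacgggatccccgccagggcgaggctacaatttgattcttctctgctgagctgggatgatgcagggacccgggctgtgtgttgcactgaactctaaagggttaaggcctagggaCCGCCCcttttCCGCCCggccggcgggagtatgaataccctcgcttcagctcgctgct
Ina (chr19:47014431-47014680): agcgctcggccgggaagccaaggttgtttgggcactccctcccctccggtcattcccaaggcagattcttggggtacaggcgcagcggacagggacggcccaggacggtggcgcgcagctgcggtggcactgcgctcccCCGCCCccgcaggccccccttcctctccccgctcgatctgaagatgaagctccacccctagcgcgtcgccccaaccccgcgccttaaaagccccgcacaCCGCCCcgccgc
Krt18 (chr15:102027966-102028179): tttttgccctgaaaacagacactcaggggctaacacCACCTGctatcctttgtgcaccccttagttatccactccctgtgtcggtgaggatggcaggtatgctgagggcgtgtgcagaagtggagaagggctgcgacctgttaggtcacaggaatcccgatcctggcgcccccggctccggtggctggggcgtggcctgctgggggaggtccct
The motifs searched were the TATA box, spelled TATAAA, and the CCAAT box, spelled as its name. The GC box was spelled GGGCGG and the AP-1 site was spelled TGANTCA. The Zeb box, bound by Zeb repressors, was spelled CACCTG. In Nes and Ina the capitals are GC boxes on the reverse strand, 2 in each, beginning at -73 and -62 in Nes and at -111 and -12 in Ina, counted from the RefSeq start. In Krt18 they are 1 Zeb box at -214 on the forward strand. No 2 matches overlapped in these windows. The Vim window of 250 bases lies inside a GENCODE exon of Vim and is not shown. It held 1 TATA box at -32 on the forward strand and CCAAT boxes at -196 on the forward and at -94 on the reverse strand. Over 32807 RefSeq windows of 250 bases, 12.4% held a TATA box, 33.8% a CCAAT box, 32.7% a GC box, 6.75% an AP-1 site and 17.2% a Zeb box. Of the 10 genes 8 had a RefSeq window, and Krt19 and Lmnb1 had none in the table used. Among genes without a call, a Zeb box also lay in the windows of Krt8 (-111), Krt7 (-44) and Lmnb2 (-31). GC boxes lay in windows of Krt7 (4 matches), Lmna and Lmnb2, and a CCAAT box in a window of Lmna. The Zeb box and the GC box are thus not particular to the genes that rose.

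Vim, the filament gene of mesenchymal cells, fell in EpiLSC. Its implied level was 1043 normalized counts in EpiLSC, against 7216 in nESC. The log2 fold change was -2.79 (SE 0.66, 95% interval -4.08 to -1.50) with an adjusted p of 0.000394 per the authors' deposited table (ENSMUSG00000026728.8). With a change of at most 2-fold as the null the adjusted p was 0.0843, so a fall of over 2-fold did not pass.

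Nes, which encodes the large filament protein nestin, moved the other way. It stood at 8486 normalized counts in EpiLSC, against 929 in nESC. The authors' deposited table gives it a log2 fold change of 3.19 (SE 0.68, 95% interval 1.87 to 4.52) and an adjusted p of 5.61e-05 (ENSMUSG00000004891.15). Nes rose by 9.13-fold and was the second most abundant of the 10 in EpiLSC per length of transcript, while its partner Vim had that place in nESC.

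Ina, the alpha-internexin gene, had the smallest p of the 10. Its implied level was 802 normalized counts in EpiLSC and 62.5 in nESC. The log2 fold change was 3.68 (SE 0.65, 95% interval 2.40 to 4.96, adjusted p 6.92e-07) per the authors' deposited table (ENSMUSG00000034336.3). In GENCODE M21 a transcript of the gene Nt5c2 on the opposite strand shares 456 exon bases with Ina. The log2 fold change of Nt5c2 was 0.45 (SE 0.74, adjusted p 0.905) per the authors' deposited table. The libraries kept strand, but the strand setting of the counting is not given in the sources used here, so reads over those bases cannot be assigned with certainty.

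All 4 keratin genes had positive log2 fold changes, but 1 of the 4, Krt18, passed the test. Krt18, the type I chain, reached 1269 normalized counts in EpiLSC, against 43.4 in nESC. The authors' deposited table gives 4.87 (SE 1.06, 95% interval 2.80 to 6.94, adjusted p 8.89e-05) for its log2 fold change (ENSMUSG00000023043.6). That is a 29.2-fold rise, exceeded in log2 fold change by 3.38% of tested genes.

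Krt8, the type II chain that pairs with Krt18, had 821 normalized counts in EpiLSC and 306 in nESC. Its log2 fold change of 1.43 (SE 1.03, 95% interval -0.59 to 3.44) missed the threshold per the authors' deposited table (adjusted p 0.518). The interval includes no change and also a rise of over 10-fold, up to 10.9-fold. Per kilobase of exon, the ratio of Krt8 to Krt18 was 0.475 in EpiLSC and 5.16 in nESC, and 0.559 in EpiLSC and 6.07 in nESC per kilobase of coding sequence. By these implied levels the excess lay with Krt18 in EpiLSC and with Krt8 in nESC. Loss of reads to the pseudogenes named below could shift the ratio in each state, and its part was not tested. The difference between their fold changes was not tested, because the table holds no covariance between genes, and their intervals overlap.

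Krt19, a type I keratin of simple epithelia, had 139 normalized counts in EpiLSC and 23.8 in nESC. Its log2 fold change was 2.55 (SE 1.26, unadjusted p 0.0426, adjusted p 0.206) by the DESeq2 model of the authors' deposited table. Krt7, the other type II chain, was the scarcest of the 10, with 43.0 normalized counts in EpiLSC and 10.7 in nESC. Its log2 fold change was 2.00 (SE 1.14, adjusted p 0.319) per the authors' deposited table. Summed over both type I chains, the implied level per kilobase was 958 in EpiLSC and 43.1 in nESC. For both type II chains it was 426 in EpiLSC and 158 in nESC.

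Both Krt8 and Krt18 have processed pseudogenes of similar sequence. Aligned to GENCODE M21 transcripts, the Krt8 transcript matched the pseudogene Krt8-ps over 941 bases at 98.6% identity, and the Krt18 transcript matched the pseudogene Gm5200 over 1267 bases at 90.5%. Neither pseudogene has a row among the genes analysed here. Reads that fit both a keratin and its copy may have been dropped or split, so the values of both are uncertain to that extent. The Krt8 match is closer in identity than the Krt18 match, and the ratio of Krt8 to Krt18 carries this uncertainty. At 90% identity over 200 bases or more, the other members matched no other gene except for the Ina overlap with Nt5c2.

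The 3 lamin genes gave 0 rises and 0 falls, and no lamin gene (0 of 3) reached an unadjusted p under 0.05 by DESeq2's Wald test. Among all tested genes 13.90% changed, so a count of 0 among 3 genes does not set the lamins apart. Lmnb1 was the most abundant of the 10 genes, with 9301 normalized counts in EpiLSC and 9722 in nESC. Its log2 fold change was -0.06 (SE 0.62, 95% interval -1.27 to 1.15, adjusted p 0.987) per the authors' deposited table (ENSMUSG00000024590.8). Lmnb1 was the 1 gene of the 6 that did not pass whose interval lay within a 4-fold change either way.

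Lmnb2, the second B-type lamin gene, had 855 normalized counts in EpiLSC and 1197 in nESC, and its log2 fold change was -0.49 (SE 1.06, adjusted p 0.943) per the authors' deposited table. Lmna, the A-type gene, had 120.1 normalized counts in EpiLSC and 189.9 in nESC, with -0.66 (SE 1.11, adjusted p 0.910) per the authors' deposited table. Their 95% intervals, -2.57 to 1.60 for Lmnb2 and -2.84 to 1.52 for Lmna, include changes of over 2-fold in either direction. Of the summed lamin level per kilobase of exon, Lmnb1 made up 93.4% in EpiLSC and 91.3% in nESC, Lmnb2 5.94% in EpiLSC and 7.77% in nESC, and Lmna 0.612% in EpiLSC and 0.905% in nESC.

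Levels of different genes were compared per kilobase of merged exon length. In EpiLSC the order was Lmnb1 (3140 normalized counts per kilobase), Nes (1323), Krt18 (883), Krt8 (419), Ina (247), Vim (220), Lmnb2 (199.5), Krt19 (75.2), Lmna (20.6) and Krt7 (6.10). In nESC it was Lmnb1 (3282 normalized counts per kilobase), Vim (1521), Lmnb2 (279), Krt8 (156), Nes (145), Lmna (32.5), Krt18 (30.2), Ina (19.3), Krt19 (12.9) and Krt7 (1.52). With no level per sample, no spread can be set against the gaps between neighbours in these orders. Lmnb1 led and Krt7 came last in both states.

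The makeup of the 7 cytoplasmic filament genes differed between the states. Per kilobase they summed to 3173 normalized counts in EpiLSC and 1886 in nESC. Vim made up 6.93% of this sum in EpiLSC and 80.7% in nESC. Nes made up 41.7% in EpiLSC and 7.68% in nESC, Krt18 27.8% in EpiLSC and 1.60% in nESC, and Krt8 13.2% in EpiLSC and 8.27% in nESC. Ina accounted for 7.80% in EpiLSC and 1.02% in nESC. These shares follow from the fold changes above and from exon length, and have no test of their own. Per kilobase of coding sequence, Vim stood at 746 normalized counts in EpiLSC and 5162 in nESC. Nes stood at 1517 in EpiLSC and 166 in nESC by that length. The sum of the 7 genes was then higher in nESC, so its direction depends on the length used.

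**Figure D2:**
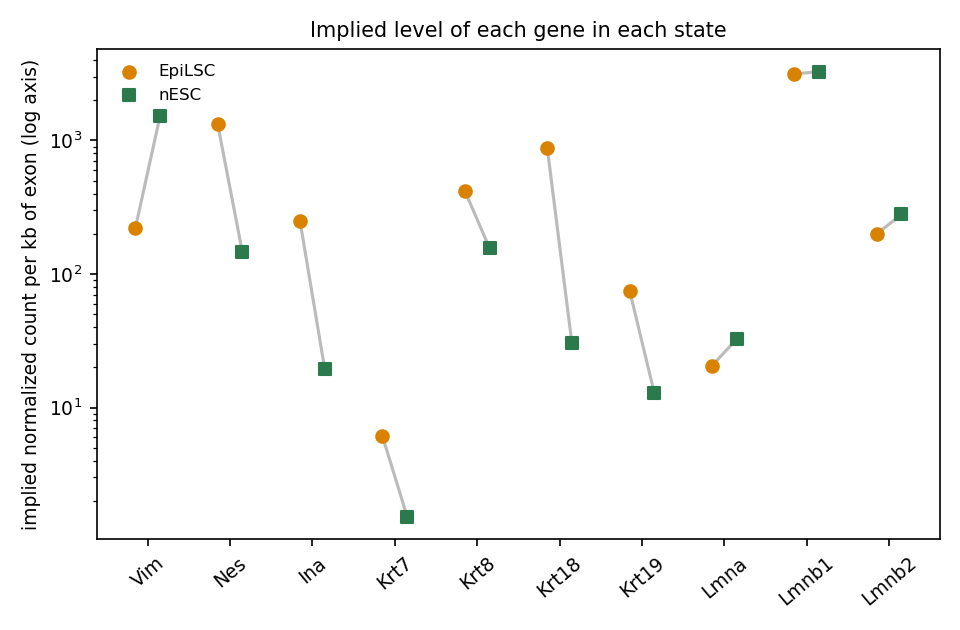
Implied level per state of each gene, in normalized counts per kilobase of exon on a log axis, with EpiLSC as circles and nESC as squares joined by a line. The order of Vim and Nes is opposite in the 2 states, and the Lmnb1 points stand almost level at 3140 in EpiLSC and 3282 in nESC.

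The precision of the fold changes differed between genes of like mean. Krt8, Krt18, Krt19, Lmna and Lmnb2 had standard errors above those of 93.2%, 95.8%, 93.6%, 93.8% and 96.2% of the 500 tested genes nearest to each in mean. For Krt18 the standard error was 1.06, against a median of 0.69 among those 500 genes. Vim (42.4%), Nes (53.6%), Ina (18.8%), Krt7 (56.4%) and Lmnb1 (8.0%) were not in that upper range. The standard error grows with the spread between libraries that the model leaves unexplained. Whether the distance between R1 and E14 enters it depends on the model formula, which is not given. Which library was high or low cannot be read from the table. The match was on the mean over both states and not on the level in the lower state.

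The standard error was widest among the coding genes of highest GC content. Among tested coding genes with a mean of 100 or more, the 2078 with the highest GC content (55.2% to 70.0%) had a median standard error of 0.88, against 0.66 to 0.71 in the other 4 groups of this size. Transcripts of the 5 genes with wide errors had a GC content of 56.4% (Krt18) to 59.3% (Lmna). Of these 5, Krt19, with a mean of 81.6, fell below the minimum of 100 and is in no group. Nes and Ina, at 55.5% each, lie in the upper group without a wide error, and Vim (53.9%) and Lmnb1 (53.3%) lie below it. The part of GC content in these errors was not tested.

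**Figure D3:**
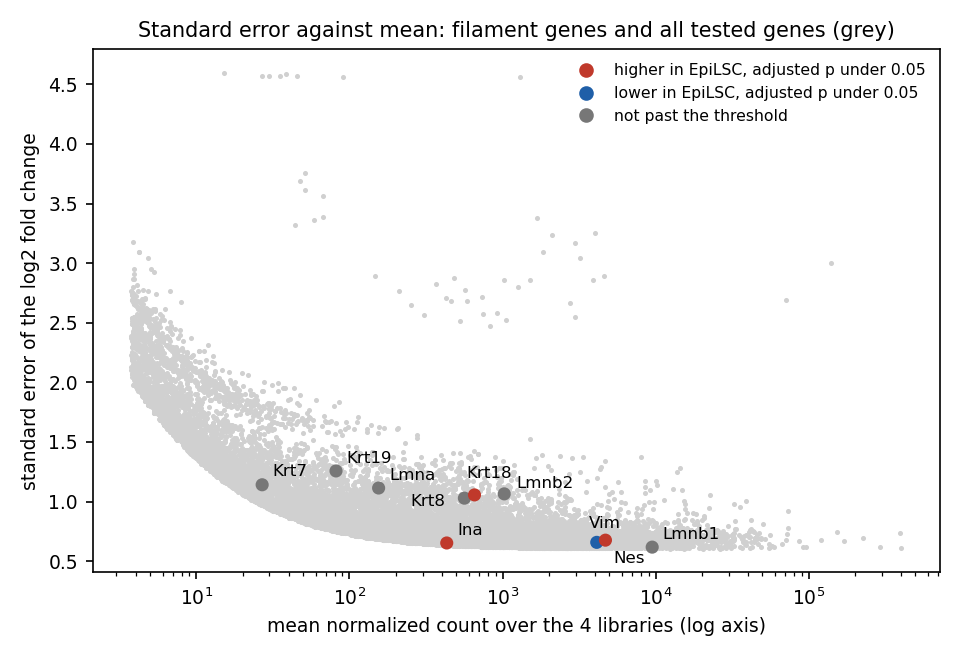
Standard error of the log2 fold change against the mean normalized count over the 4 libraries (log axis) for all tested genes (grey) and the 10 filament genes (coloured by call). Krt8, Krt18, Krt19, Lmna and Lmnb2 lie above the main band of genes, while Vim, Nes, Ina and Lmnb1 lie within it.

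Other intermediate filament genes moved both ways. Of 27 further filament genes, 15 were tested, and 4 rose and 2 fell. By the same rule 7.67% of all tested genes rose and 6.23% fell. The median log2 fold change of the 15 was 1.14, against 0.02 over all tested genes. This list was chosen with earlier results of these data known, so its counts are no test. The 4 that rose were neuronal or muscle-type filament genes, all outside the keratins. Synm, the synemin gene, rose by 3.76 (SE 0.69), Nefl, the light neurofilament gene, by 3.19 (SE 0.69), Prph, the peripherin gene, by 5.40 (SE 1.17) and Nefm, the medium neurofilament gene, by 2.56 (SE 0.71) as log2 fold changes of the authors' deposited table. Nefl was the most abundant of them, with 3699.8 normalized counts in EpiLSC and 406 in nESC. Nefh, the heavy neurofilament gene (1.14, SE 0.68), and Iffo2 (1.50, SE 0.76) missed the threshold per the authors' deposited table. When the null was a change of at most 2-fold, Nefm no longer passed (adjusted p 0.259).

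Both falls in that list were keratins. Krt42 stood at 2.64 normalized counts in EpiLSC and 231 in nESC, and its log2 fold change was -6.45 (SE 1.40, adjusted p 9.61e-05) per the authors' deposited table. Krt13 had 0.190 normalized counts in EpiLSC and 23.5 in nESC (-6.95, SE 2.32, adjusted p 0.0235) per the authors' deposited table. Their EpiLSC levels are under 3 normalized counts, so the sizes of these falls rest on few reads. Krt13 no longer passed when tested against a change of at most 2-fold (adjusted p 0.121). Of the other 14 keratins, 4 were tested without a call, and 10, among them the epidermal Krt1 and Krt14, had low means and no adjusted p.

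Linker and desmosome genes, most of which encode proteins that tie filaments to junctions and to each other, had 6 rises and 0 falls among 18 tested. That is 33.3% of those tested, against 13.90% of all tested genes. The list, like the others here, was chosen with earlier results of these data known, so its share is no test. The list also holds the transcription factor gene Trp63, which did not pass. Without adjustment, DESeq2's Wald test put 6 higher and 2 lower at p under 0.05, and the median log2 fold change was 0.46. Dsc2, a desmosomal cadherin gene, rose by 3.72 (SE 0.71), Ppl, the periplakin gene, by 3.66 (SE 0.86), and Perp, a desmosome membrane protein gene, by 3.11 (SE 0.75) per the authors' deposited table. Dsc3, another desmosomal cadherin gene, rose by 6.52 (SE 1.79) per the authors' deposited table, with 44.7 normalized counts in EpiLSC and 0.486 in nESC, where it rests on few reads. Pkp2 and Evpl also rose. Among genes without a call, Dsg2 (-1.40, SE 0.62), Jup (-1.82, SE 1.23) and Dsp (-0.39, SE 0.81) had negative log2 fold changes. Pkp4 (0.49, SE 0.62) and Plec (0.42, SE 1.30) had positive ones per the authors' deposited table. The list summed to 45340 normalized counts in EpiLSC and 81120 in nESC, of which Macf1 held 19283 in EpiLSC and 51774 in nESC. The abundant linker Macf1, which joins actin and microtubules (-1.42, SE 0.62, adjusted p 0.120), and the catenin gene Ctnna1 (-0.32, SE 0.62) missed the threshold per the authors' deposited table. When the null was a change of at most 2-fold, 3 of the 6 rises were left, since Perp (adjusted p 0.0668), Pkp2 (0.459) and Evpl (0.355) no longer passed. Evpl also lost its call with adjustment over all genes with a p (0.0574) and by Benjamini-Yekutieli (0.476).

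Partners of the nuclear lamina had 0 rises and 1 fall among 28 tested genes, and without adjustment DESeq2's Wald test put 0 higher and 4 lower at p under 0.05. Of this list 3.57% changed, against 13.90% of all tested genes, and the median log2 fold change was -0.27. The fall was that of Syne3, which encodes nesprin-3, the outer nuclear membrane protein that binds plectin and through it intermediate filaments. Syne3 had 8.95 normalized counts in EpiLSC and 74.4 in nESC (-3.06, SE 1.10, adjusted p 0.0412) per the authors' deposited table. The call ended with adjustment over all genes with a p (0.0511), by Benjamini-Yekutieli (0.423) and against a change of at most 2-fold (0.479). Also lower without adjustment were Syne1 (-1.65, SE 0.64), Sun1 (-1.52, SE 0.64) and Syne2 (-1.28, SE 0.65) per the authors' deposited table. Their adjusted p-values by DESeq2, 0.0647, 0.106 and 0.229 in that order, missed the threshold. Tpr, of the nuclear pore basket (-0.13, SE 0.63), and Tmpo, a lamin-binding membrane protein gene (0.68, SE 0.69), missed the threshold per the authors' deposited table.

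**Figure D4:**
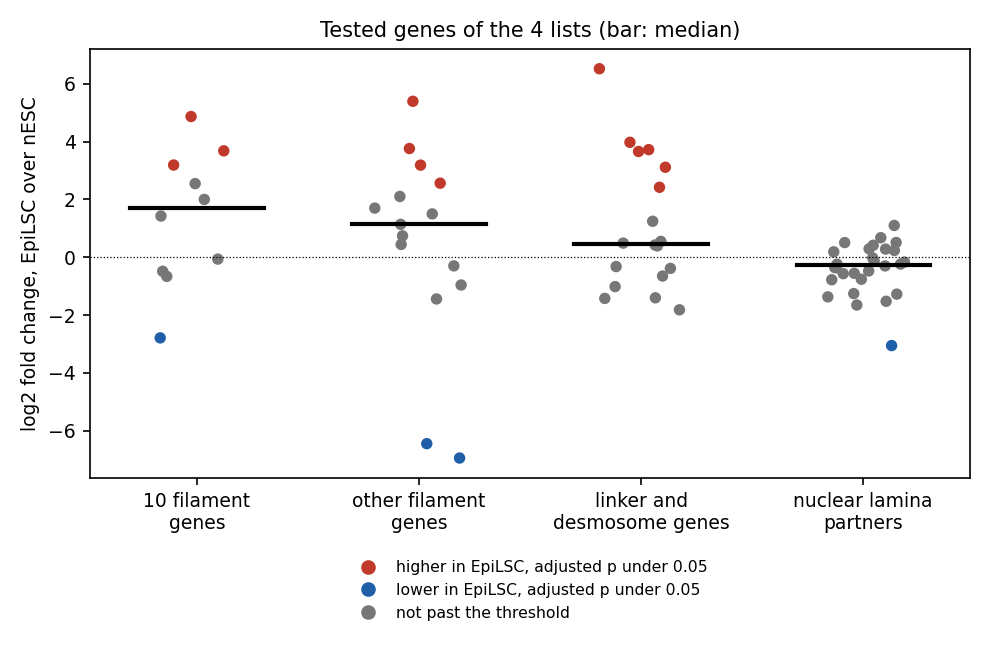
Log2 fold change of the tested genes of 4 lists, each point 1 gene, coloured by call, with a bar at the list's median. The medians are 1.71 for the 10 filament genes, 1.14 for other filament genes, 0.46 for linker and desmosome genes and -0.27 for nuclear lamina partners.

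Neighbours on the chromosome were taken from GENCODE M21 as the nearest pair of coding genes in the table on each side. Of 36 such genes that are not members 27 were tested, and 2 rose and 2 fell, with a median log2 fold change of 0.25. That is 14.8% of them, near the 13.90% of all tested genes. Krt8 and Krt18 lie next to each other on chromosome 15 on opposite strands. Eif4b, on the other side of Krt18, had 25306 normalized counts in EpiLSC and 28206 in nESC and did not pass (-0.16, SE 0.61, adjusted p 0.977) per the authors' deposited table. Next to Vim, the sialyltransferase gene St8sia6 fell by 4.39 on the log2 scale (SE 0.66, adjusted p 1.96e-09) per the authors' deposited table. The other calls, picked out after their values were seen, were Crabp2 beside Nes (3.25, SE 0.70), Rab25 near Lmna (3.78, SE 0.93) and Krt13 near Krt19 per the authors' deposited table.

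Markers of cell types that use these filaments were counted beside them. Among 8 tested epithelial markers 6 rose and 0 fell (0 also without adjustment of DESeq2's p), and their summed implied level was 28988 normalized counts in EpiLSC and 14651 in nESC. Cdh1, the E-cadherin gene, made up most of the nESC sum, with 14312 in EpiLSC and 13110 in nESC, and did not pass. The other epithelial markers summed to 14676 normalized counts in EpiLSC and 1541 in nESC, led by Epcam (5926 in EpiLSC and 705 in nESC) and Esrp1, an epithelial splicing factor gene (3463 in EpiLSC and 42.5 in nESC). Of 8 tested trophectoderm markers, a lineage with high Krt8 and Krt18, 1 rose and 4 fell. Their summed level was 1995 normalized counts in EpiLSC, of which Eomes held 1917, and 2135 in nESC. Cdx2, a defining trophectoderm factor, was at 1.80 normalized counts in EpiLSC and 84.5 in nESC, and Elf5 and Hand1 were below 1 in both states by this measure, at 0.161 and 0.668 in EpiLSC and 0.802 and 0.140 in nESC.

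Of 7 tested neural markers 2 rose and 1 fell, and without adjustment DESeq2's Wald test put 4 higher and 1 lower at p under 0.05. Map2, a microtubule protein gene of neurons, rose to 1221 normalized counts in EpiLSC, against 325 in nESC, and Fabp7 rose to 22.9 in EpiLSC, against 0.174 in nESC. Ncam1, a neural adhesion gene, fell to 189 normalized counts in EpiLSC, against 1516 in nESC. The whole list summed to 2080 normalized counts in EpiLSC and 2289.9 in nESC, and to 1892 in EpiLSC and 774 in nESC without Ncam1. Dcx, a gene of young neurons, had 101.6 normalized counts in EpiLSC and 0.174 in nESC (unadjusted p 0.0145, adjusted p 0.0894 by DESeq2), and Pax6 had 19.8 in EpiLSC and 2.61 in nESC (unadjusted p 0.0452, adjusted p 0.214 by DESeq2). Sox1, an early neural factor, stood at 5.58 normalized counts in EpiLSC and 22.0 in nESC without a call, and the neuronal factors Neurog1 and Neurog2 were at 0.629 and 1.33 in EpiLSC and 0.443 and 0.156 in nESC.

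Of 7 mesenchymal markers, those of the cells in which Vim is the typical filament gene, 2 rose and 2 fell. The sum was 4764 normalized counts in EpiLSC and 43472 in nESC, mostly from Fn1, the fibronectin gene (3353 in EpiLSC and 41938 in nESC), and the other markers summed to 1411 in EpiLSC and 1534 in nESC. The factor gene Zeb1 fell with Fn1, to 49.1 normalized counts in EpiLSC, against 1120.1 in nESC. The factor genes Zeb2 and Twist1 rose, Zeb2 to 559.7 normalized counts in EpiLSC, against 17.0 in nESC, and Twist1 to 194 in EpiLSC, against 10.1 in nESC.

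Of 9 tested primitive endoderm markers 5 rose and 1 fell, with sums of 5985 normalized counts in EpiLSC and 1109.9 in nESC. Those that rose were Lamb1 (4700.5 in EpiLSC and 903 in nESC), Col4a1 (744 in EpiLSC and 38.3 in nESC), Col4a2 (228 in EpiLSC and 22.8 in nESC), Foxa2 (143 in EpiLSC and 1.48 in nESC) and Dab2 (121 in EpiLSC and 11.8 in nESC). The marker that fell was Srgn (1.64 in EpiLSC and 40.9 in nESC). Pdgfra, at 13.5 in EpiLSC and 69.9 in nESC, missed the threshold (unadjusted p 0.0212, adjusted p 0.121 by DESeq2). Without adjustment, DESeq2's Wald test put 5 of the list higher and 2 lower at p under 0.05. The defining factor Gata6 was at 2.16 normalized counts in EpiLSC and 3.47 in nESC. Fibroblast markers had 4 rises and 0 falls among 7 tested (0 falls also without adjustment of DESeq2's p), with sums of 1025 normalized counts in EpiLSC and 179 in nESC. Those that rose were Fbn1 (548 in EpiLSC and 77.9 in nESC), Mmp2 (205 in EpiLSC and 12.4 in nESC), Thy1 (141 in EpiLSC and 5.83 in nESC) and Dcn (52.6 in EpiLSC and 0.485 in nESC), while the collagen gene Col1a1, at 9.04 in EpiLSC and 3.09 in nESC, did not pass. The nESC levels of Fabp7, Foxa2 and Dcn and the EpiLSC level of Srgn rest on few reads. Mesoderm markers had 2 rises and 1 fall among 6, and surface ectoderm markers 1 rise and 2 falls among 4. Some genes stand in 2 lists, so the counts are not independent. Eomes is the trophectoderm rise and 1 of the mesoderm rises, and Grhl2 rose as an epithelial and a surface ectoderm marker. Tfap2a fell as a trophectoderm and a surface ectoderm marker. Outside the naive and formative lists, 42.9% (neural) to 75.0% (epithelial, surface ectoderm) of tested markers changed. Among all tested genes 13.90% did. The marker lists were chosen by name with earlier results known, so these shares are no test of a cell type. All 8 naive markers fell and all 6 formative markers rose, but the 6 genes from which the sign was read are among them, 3 in each list, so their direction is no result. The part of cells of these types in the filament results was not tested.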

How the data were processed

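RNA of 4 samples was analysed, EpiLSC and nESC of the lines R1 and E14. The submitters' processing notes name TopHat2, HTSeq, DESeq2 1.8.2 and build mm9. The annotation is not given in the sources used here, nor are the model formula and the strand setting. Of the IDs found in GENCODE M21, 27.7% carry its version number and 72.3% a lower one, so the release counted was not M21, and it was not determined whether it was built on mm9. Exon lengths and overlaps taken from M21 may differ from those counted. The 1 comparison table that the authors deposited holds, for each gene, a signal (the mean of counts divided by size factors), the log2 fold change and its standard error, a Wald score, and p-values with their adjustment, per the file headers. The score equalled the fold change over its error and the adjusted p the Benjamini-Hochberg value over 16361 genes. The other 3935 genes, with means up to 3.74, have a p but no adjusted p and are counted as not tested.

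No new test of single genes was made. Levels from mean m and log2 fold change L were 2m divided by 1 plus the fold of EpiLSC over nESC in nESC, and 2m less that value in EpiLSC. Intervals of 95% use the normal quantile. Names, exons and neighbours came from GENCODE M21 (GRCm38), whose gene coordinates are not printed. Of 20296 IDs 20167 had a name. Alignments used blastn 2.17.0. The adjustment code was tested on simulated tables of independent genes with the deposited standard errors, which is no test of the calls. Related genes were named by a rule: in each list up to 4 called genes in each direction by p and 2 uncalled by mean. Called or abundant neighbours and direction markers were named as well. Pkp2, Evpl, Dsg2, Jup, Dsp, Pkp4, Plec, Syne1, Sun1, Syne2, Crabp2, Rab25 and single cell type markers were named outside it, after their values were seen. Members and lists were chosen with earlier results of these data known. Protein sequences and values per sample were not analysed here.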

Additional observations from a re-analysis of the deposited data

How the results depend on the processing

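The alternatives were adjustment over every gene with a p, over genes with a mean of 100 or more, or by Benjamini-Yekutieli, a null of at most 2-fold, and recentring on the median of all tested genes or of those with a mean of 1000 or more. Nes, Ina and Krt18 kept their calls in 6 of 6 (highest adjusted p 0.0214, 0.00127 and 0.0058), and 3 members rose in each. Vim kept its call in 5 of 6, and 0 members fell against the 2-fold null. None of the 6 members without a call gained one or changed sign in any alternative that tested it. Krt7 and Krt19, with means below 100, left the test under that minimum. Over all genes, rises numbered 636 with means of 100 or more, 628 against the 2-fold null and 776 by Benjamini-Yekutieli, against 1255. Falls numbered 615, 502 and 625 in that order, against 1019. Under these 3 settings other filament genes had 1 fall in place of 2, and linker rises, 6 in the deposited table, were 4 with means of 100 or more, where Dsc3 and Evpl leave the test, 3 against the 2-fold null and 4 by Benjamini-Yekutieli. Without a filter linker rises were 5, since Evpl missed the threshold (adjusted p 0.0574 by DESeq2's p). Lamina partners had 0 falls in these 3 settings and without a filter. With the minimum of 100, 10713 genes stayed in the test, and Krt13 and Syne3 left it as well. Benjamini-Yekutieli and the 2-fold null can only raise an adjusted p, so they could not add calls. With coding length in place of exon length, Vim moved from place 6 to 4 in EpiLSC, Krt8 from 4 to 5 and Ina from 5 to 6, while in nESC Ina and Krt18 exchanged places 7 and 8. The summed level of the cytoplasmic filament genes, higher in EpiLSC by exon length, was higher in nESC by coding length. No paired analysis was possible because the table holds 1 mean and 1 fold change per gene, and for the same reason no replicate was left out. Protein alignments were not run. Depth is unknown, so a gene without a call is not shown to be unchanged.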
